A study of Homo sapiens with 6 samples.

Results

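The genes described here are LTB, LTBR, TREM1, TNF, TNFSF15, TNFRSF1A, TNFRSF1B, TNFRSF21, TNFRSF12A and TNFAIP2. They were taken as the rows of the deposited expression table that carry these names, and all 10 were found among its 51537 genes. The list holds 3 ligands and 5 receptors of the tumour necrosis factor (TNF) superfamily, the myeloid receptor TREM1 and a gene named for its induction by TNF. It was drawn up with the difference between resistant and control cells already known. That difference is therefore given for the 10 genes as a description, with its error and with no p-value.

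The study sequenced poly(A) RNA from H3122, an established human lung adenocarcinoma cell line, and from a crizotinib-resistant derivative, with 3 libraries per group. The control libraries came from H3122 cells with the phenotype label control. The resistant libraries came from H3122 cells that had been taken through rising crizotinib concentrations from 0.1 µM to 10 µM; crizotinib inhibits the ALK and MET kinases. The labels do not say whether the resistant cells are 1 clone or a pool, whether they carried drug at harvest, or whether replicates were separate cultures, so the spread behind each p-value may be technical only. Values are TPM, a length-scaled share of the transcripts of a library, as mean ± SD with n = 3 per group unless each library is given.

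TNF superfamily ligands act as trimers at the cell surface or after release by proteases, and their receptors have no kinase of their own. TNF binds TNFRSF1A and TNFRSF1B, and TNFRSF1A recruits TRADD, RIPK1, TRAF and linear ubiquitin ligase proteins that switch on the canonical NF-kB kinase complex. Lymphotoxin beta, the product of LTB, anchors lymphotoxin alpha at the membrane, and the joint trimer binds LTBR, which works largely through the kinase MAP3K14 and the non-canonical pair NFKB2 and RELB. TREM1 is best known from neutrophils and monocytes, where it amplifies inflammatory signals through the adaptor TYROBP and the kinase SYK. LTB is likewise known mainly from lymphocytes, and many of these genes are themselves NF-kB targets.

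The promoters of the genes with the largest differences, LTB and TREM1, are shown because one carries a match to the NF-kB motif and the other does not. The sequences are the 250 bases before the RefSeq start on GRCh38.p14, on the minus strand, at chr6:31582426-31582675 for LTB and chr6:41286683-41286932 for TREM1, written 5′ to 3′ with the motif match in capitals.
LTB: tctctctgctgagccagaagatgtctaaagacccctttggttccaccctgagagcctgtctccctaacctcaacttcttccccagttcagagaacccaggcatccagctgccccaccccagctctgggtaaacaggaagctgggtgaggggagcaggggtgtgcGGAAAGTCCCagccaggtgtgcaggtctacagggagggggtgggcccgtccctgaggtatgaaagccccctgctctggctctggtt
TREM1: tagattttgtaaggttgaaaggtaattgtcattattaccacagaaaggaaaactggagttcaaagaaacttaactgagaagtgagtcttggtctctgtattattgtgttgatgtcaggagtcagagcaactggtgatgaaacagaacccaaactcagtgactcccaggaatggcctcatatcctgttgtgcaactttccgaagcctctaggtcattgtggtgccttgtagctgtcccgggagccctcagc
The match in LTB begins 86 bases before the RefSeq start. It lies at 31582502 to 31582511, which is inside the span that GENCODE 29 gives for LTB, 11 bases from its upstream end at 31582522. The NF-kB consensus was searched on both strands with no mismatch, and 5.05% of 27305 promoters of this length held a match. Promoters were found for 9 of the 10 genes (not for TNFRSF12A), and LTB was the 1 with a match. For LTBR and TNFSF15 the window lies wholly inside the GENCODE 29 span of the gene. It is at 6383912 to 6384161 for LTBR, whose upstream end is at 6375045. For TNFSF15 it is at 114792531 to 114792780, with the upstream end at 114806126. Sequence before those upstream ends was not searched. In a list of 30 textbook NF-kB target genes, 12 of the 24 with a promoter in the table held a match, among them TNFAIP3, NFKBIA and CXCL1. A match describes the letters in the window and is not a measured binding site.

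The libraries held an estimated 29856927 to 36695580 reads, rebuilt from TPM and gene length. For LTB, TREM1, TNF and TNFRSF1B the rebuilt values were whole numbers of reads in every library, and they are given beside the TPM of these genes. The epithelial markers EPCAM, CDH1, KRT8, KRT18 and KRT19 were high in every library. The summed level over the 7 genes of their list was at least 15000 TPM everywhere, carried mainly by the keratins KRT8, KRT18 and KRT19. The other genes of the list were low. NKX2-1, a lung lineage factor, stayed under 1 TPM in all 6 libraries. NAPSA averaged 1.75 ± 0.336 TPM among control libraries and 1.22 ± 0.194 TPM among resistant ones. Of 29 leukocyte markers, 23 were under 1 TPM in all 6 libraries and 5 of these were listed at 0 throughout. Their summed level ranged from 16.1 to 17.0 TPM among control libraries and from 18.3 to 20.8 TPM among resistant ones, carried mainly by CSF1R, CD14 and CORO1A. The defining markers PTPRC, SPI1, CD3E, MS4A1, LYZ, MPO and FCGR3B were at or near 0 in both groups. In bulk RNA, fewer cells that express a gene and less of its RNA per cell cannot be told apart.

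LTB was near the detection floor in control cells and among the moderately expressed genes in resistant cells. LTB (ENSG00000227507, chromosome 6, 31580525 to 31582522, GENCODE 29 on GRCh38, minus strand) was at 0.358, 0.308 and 0.310 TPM in the control libraries, from 5, 4 and 5 estimated reads. In the resistant libraries it was at 17.2, 14.6 and 17.9 TPM, from 248, 203 and 266 reads. Every resistant library lay far above every control library, and the 3 libraries of each group lay close together. The ratio of the pooled reads was 51.0, with a 95% exact (Clopper-Pearson) interval of 30.2 to 93.8 that covers counting error only. The fitted difference, resistant minus control, was 3.72 ± 0.11 (SE) on the log2(TPM + 1) scale; the added 1 makes it smaller than the ratio of reads for a gene this low in controls. That difference was at the 99.98 percentile of the 16077 genes tested. LTB moved from the 0.827 percentile of tested genes by mean level in control to the 56.7 percentile in resistant libraries. LTB was chosen with this contrast known and reached 1 TPM, the level needed to be tested, only in the resistant libraries. A low control rank and a high rank of the difference were thus favoured from the start, and these ranks only describe LTB.

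The partner of LTB in the membrane trimer, LTA, stayed at the floor in both groups. LTA was at 0.0633, 0.136 and 0 TPM in control and 0.0612, 0.127 and 0.119 TPM in resistant libraries, from 0 to 2 estimated reads in each, too few to detect a difference. TNF, the third ligand of the same cluster, was very low throughout. TNF (ENSG00000232810, chromosome 6, 31575567 to 31578336) was at 0.0656, 0.0704 and 0 TPM in control libraries, from 1, 1 and 0 reads, and at 0.571, 0.526 and 0.616 TPM in resistant libraries, from 9, 8 and 10 reads. The groups did not overlap. The ratio of its pooled reads, 27 against 2, was 13.4 with a 95% exact interval of 3.38 to 117. TNF stayed under 1 TPM in all libraries and so did not enter the fit. LTA, TNF and LTB lie side by side in the class III region of the major histocompatibility complex, with 1242 bp between LTA and TNF and 2188 bp between TNF and LTB.

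TNFSF15 was the ligand that went the other way. TNFSF15 (ENSG00000181634, chromosome 9, 114784635 to 114806126), which encodes TL1A, the ligand of TNFRSF25, was at 14.6, 19.0 and 18.5 TPM in control and 5.68, 5.84 and 4.99 TPM in resistant libraries. All resistant libraries lay below all control libraries, and control replicate 1 was the lowest of its group. The difference was -1.49 ± 0.11 on the log2(TPM + 1) scale, a mean 3.15-fold higher in control libraries, and lay at the 0.61 percentile of all tested genes. Its receptor TNFRSF25, a death-domain receptor outside the 10 genes, rose from 1.54 ± 0.283 to 3.32 ± 0.342 TPM (log2 difference 0.77 ± 0.14, adjusted p = 0.0026), and the decoy receptor TNFRSF6B was listed at 0 in all 6 libraries. TNFRSF25 is named after its values were seen.

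**Figure D1:**
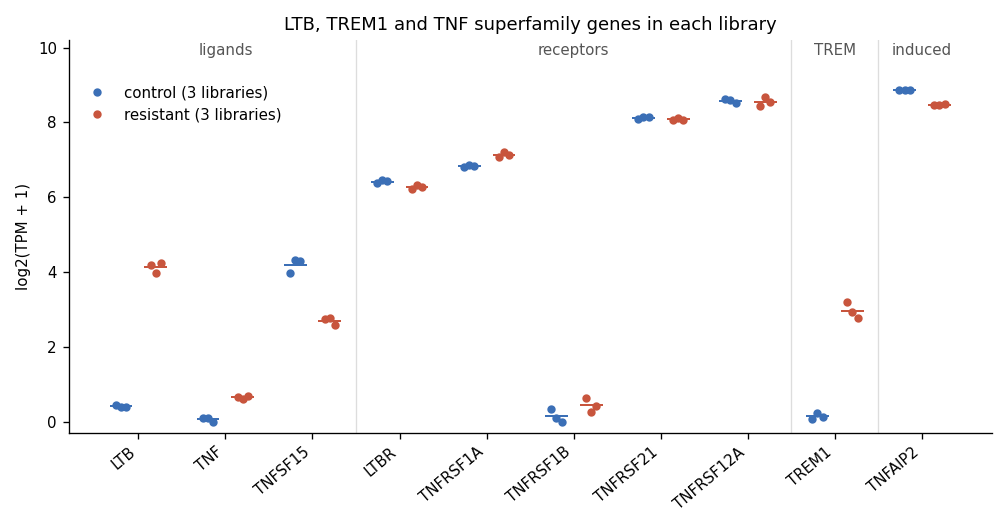
Expression of the 10 genes in each library as log2(TPM + 1), with control libraries in blue, resistant libraries in red and a line at the mean of each group. LTB and TREM1 move from near 0 to the range of moderately expressed genes and TNFSF15 falls, while the receptors LTBR, TNFRSF1A, TNFRSF21 and TNFRSF12A differ by at most 0.30 between group means.

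TREM1 was the other gene that was close to absent in control cells. TREM1 (ENSG00000124731, chromosome 6, 41267926 to 41286719, minus strand) was at 0.0508, 0.164 and 0.0880 TPM in control libraries, from 2, 6 and 4 reads. It was at 8.11, 6.67 and 5.79 TPM in resistant libraries, from 330, 262 and 243 reads. The groups were far apart, and resistant replicate 1 was the highest. The ratio of pooled reads was 69.3 with a 95% exact interval of 39.5 to 135, and the difference was 2.83 ± 0.15 on the log2(TPM + 1) scale. LTB and TREM1 reached 1 TPM in resistant libraries alone, so each entered the fit only through the group in which it was high.

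Partners and neighbours of TREM1 were silent or moved in both directions. TYROBP, the adaptor through which TREM1 signals, was listed at 0 in all 6 libraries, as were TREM2 and NCR2, other receptors of the TREM cluster. TREML4, a TREM-like receptor gene 29043 bp from TREM1, rose from 0.497 ± 0.0257 to 2.91 ± 0.272 TPM (log2 difference 1.38 ± 0.13), from 11 to 15 estimated reads in each control and 69 to 82 in each resistant library. It was under 1 TPM in every control library and entered the test only through the resistant group, which fixed its direction. SYK, the kinase downstream of TYROBP, fell from 52.6 ± 0.954 to 37.0 ± 1.52 TPM (log2 difference -0.50 ± 0.05, adjusted p = 1.31e-04). MALT1 and BCL10, partners that carry the signal to NF-kB, were lower as well: MALT1 fell from 8.58 ± 0.706 to 5.61 ± 0.744 TPM (adjusted p = 0.0046) and BCL10 from 25.8 ± 1.07 to 20.5 ± 1.21 TPM (adjusted p = 0.00423). Of the 12 genes in the list of TREM receptors and their partners, 6 were tested, 1 rose, 4 fell and 1 did not pass. Over all tested genes, 24.0% were called higher and 24.7% lower. The 1 that rose was TREML4, and CARD9, among those that fell, met the filter only through the control libraries. The median log2 difference was -0.41, against -0.0044 over all genes tested.

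LTBR, TNFRSF1A, TNFRSF12A and TNFRSF21 were abundant in both groups, and TNFRSF1B was barely detected. LTBR (ENSG00000111321, chromosome 12, 6375045 to 6391571), the receptor of the lymphotoxin trimer, was at 82.5, 86.5 and 84.8 TPM in control and 73.9, 78.8 and 76.2 TPM in resistant libraries. The groups did not overlap, with the resistant libraries lower by 0.15 ± 0.04 on the log2(TPM + 1) scale. With the 12 alternatives included, the difference ranged from -0.17 to -0.11.

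TNFRSF1A, its neighbour and the main receptor of soluble TNF, was higher in resistant libraries. TNFRSF1A (ENSG00000067182, chromosome 12, 6328757 to 6342114) was at 111, 116 and 113 TPM in control and 134, 148 and 139 TPM in resistant libraries, a log2 difference of 0.30 ± 0.05 with no overlap. TNFRSF1B, the second TNF receptor and one known mainly from leukocytes, was barely detected. It was at 0.263, 0.0627 and 0 TPM in control and 0.537, 0.205 and 0.329 TPM in resistant libraries, from 9, 2 and 0 and from 19, 7 and 12 reads. The groups overlapped, and the ratio of pooled reads was 3.44 with a 95% exact interval of 1.72 to 7.46. The gene was under 1 TPM throughout and was not tested.

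The most abundant receptors differed between groups by less than the spread between libraries. TNFRSF12A (ENSG00000006327, chromosome 16, 3018445 to 3022383), the receptor of the ligand TWEAK and known as Fn14, was at 395, 384 and 366 TPM in control and 348, 407 and 376 TPM in resistant libraries. TNFRSF21 (ENSG00000146072, chromosome 6, 47231532 to 47309905), known as death receptor 6, was at 274, 281 and 281 TPM in control and 269, 280 and 267 TPM in resistant libraries. Resistant and control libraries overlapped for each, with log2 differences of -0.02 ± 0.06 for TNFRSF12A and -0.03 ± 0.04 for TNFRSF21. TNFSF12, which encodes TWEAK, was below 1 TPM in every library, at 0.594, 0.712 and 0.635 TPM in control and 0.135, 0.0700 and 0.0328 TPM in resistant libraries. The groups did not overlap for TNFSF12, a gene that shares reads with a read-through transcript into TNFSF13 and is thus uncertain, and that is named after its values were seen.

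TNFAIP2, named for its induction by TNF, was the most abundant of the 10 genes in control cells and was lower in resistant cells. TNFAIP2 (ENSG00000185215, chromosome 14, 103123442 to 103137439) was at 470, 471 and 463 TPM in control and 355, 353 and 359 TPM in resistant libraries. The replicates were tight, with a coefficient of variation of 0.916% and 0.872%, and the groups did not overlap (log2 difference -0.39 ± 0.03). Other genes named for induction by TNF went both ways. TNFAIP3, a feedback inhibitor of NF-kB, rose from 1.08 ± 0.086 to 5.68 ± 0.509 TPM (log2 difference 1.68 ± 0.11, adjusted p = 2.93e-05), and TNFAIP1 rose from 38.1 ± 0.123 to 53.9 ± 1.06 TPM (adjusted p = 6.91e-05). TNFAIP8, an inhibitor of cell death, fell from 21.3 ± 1.60 to 14.5 ± 2.11 TPM (adjusted p = 0.00435). TNFAIP8L1 fell from 16.9 ± 0.149 to 14.7 ± 0.887 TPM (adjusted p = 0.0383), a call lost in 7 of 12 alternatives. Of 7 such genes outside the 10, 4 were tested, of which 2 rose and 2 fell, beside 24.0% and 24.7% of all tested genes.

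By level, the 10 genes fell into a high and a low set in control libraries. In resistant libraries LTB, TREM1 and TNFSF15 lay between the high and the low genes. In control libraries the order was TNFAIP2, TNFRSF12A, TNFRSF21, TNFRSF1A, LTBR, TNFSF15 and LTB, each separated from the next without overlap, followed by TNFRSF1B, TREM1 and TNF, whose libraries overlapped. In resistant libraries TNFRSF12A and TNFAIP2 overlapped at the top, TNFRSF21, TNFRSF1A, LTBR and LTB followed without overlap, TREM1 and TNFSF15 overlapped, and TNF and TNFRSF1B overlapped at the bottom. LTB thus stood below TNFSF15 in control libraries (0.325 ± 0.0286 against 17.4 ± 2.41 TPM) and above it in resistant libraries (16.5 ± 1.75 against 5.50 ± 0.452 TPM).

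Of the 10 genes, 8 were tested with limma across all genes. Of these, 6 were called, against 48.6% of all tested genes: 3 higher (LTB, TREM1 and TNFRSF1A; 24.0% of all tested genes were called higher) and 3 lower (LTBR, TNFSF15 and TNFAIP2; 24.7% were called lower). The groups did not overlap for the same 6 of 8, as for 57.9% of all tested genes. Without control replicate 2 or 3 or resistant replicate 1 or 3, LTBR was not called and 2 were lower. With the list chosen on this contrast, the counts carry no weight of their own. At least a 2-fold difference on the log2(TPM + 1) scale, as for LTB, TREM1 and TNFSF15, was seen in 6.36% of all tested genes.

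Of the 15 other TNF superfamily ligands, 12 stayed under the filter of 1 TPM in 3 libraries, whereas 13 of 24 other receptors passed it. With the 10 genes included, 5 of 18 superfamily ligands and 17 of 29 receptors passed. Of the 3 other ligands tested, 1 fell, 0 rose and 2 did not pass the threshold. Over all tested genes, 24.7% fell and 24.0% rose. Without a filter on low values, 2 fell. The ligand that fell was TNFSF10, which encodes TRAIL, a death ligand, from 3.08 ± 0.620 to 0.842 ± 0.208 TPM (log2 difference -1.14 ± 0.17, adjusted p = 0.00111). It reached 1 TPM in all 3 control libraries and, among resistant libraries, in replicate 2 alone, so the filter favoured its direction. It is named after its values were seen. TNFSF13, the most abundant other ligand and known as APRIL, was at 16.1 ± 0.337 and 17.4 ± 2.01 TPM (log2 difference 0.10 ± 0.08, adjusted p = 0.374). CD40LG, FASLG and TNFSF11 were listed at 0 in all libraries.

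Of the 13 other receptors tested, 6 rose (46.2%), 1 fell (7.69%) and 6 did not pass, beside 24.0% and 24.7% of all tested genes, and their median log2 difference was 0.40. CD27 met the filter only through the resistant libraries and was not called. With a filter of 5 TPM in 3 libraries, 3 rose. CD40, a costimulatory receptor known from B cells and also present on epithelia, rose from 35.5 ± 2.15 to 55.1 ± 1.28 TPM (log2 difference 0.62 ± 0.05, adjusted p = 9.58e-05). The TRAIL receptors TNFRSF10A, which carries a death domain, and TNFRSF10D, a decoy, were higher. TNFRSF10A rose from 11.8 ± 1.40 to 17.1 ± 1.23 TPM (adjusted p = 0.0034) and TNFRSF10D from 19.4 ± 0.138 to 28.9 ± 1.96 TPM (adjusted p = 2.74e-04). TNFRSF10B, a more abundant TRAIL receptor gene, was at 37.8 ± 1.28 and 41.2 ± 2.17 TPM (adjusted p = 0.103) and did not pass. TNFRSF10C did not pass either (adjusted p = 0.0734). Both are named after their values were seen. TNFRSF11A, the receptor RANK, fell from 11.9 ± 0.373 to 8.16 ± 0.331 TPM (log2 difference -0.49 ± 0.07, adjusted p = 7.05e-04). The TRAIL receptor genes are close relatives, and how the authors' counting treated shared reads is not known.

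**Figure D2:**
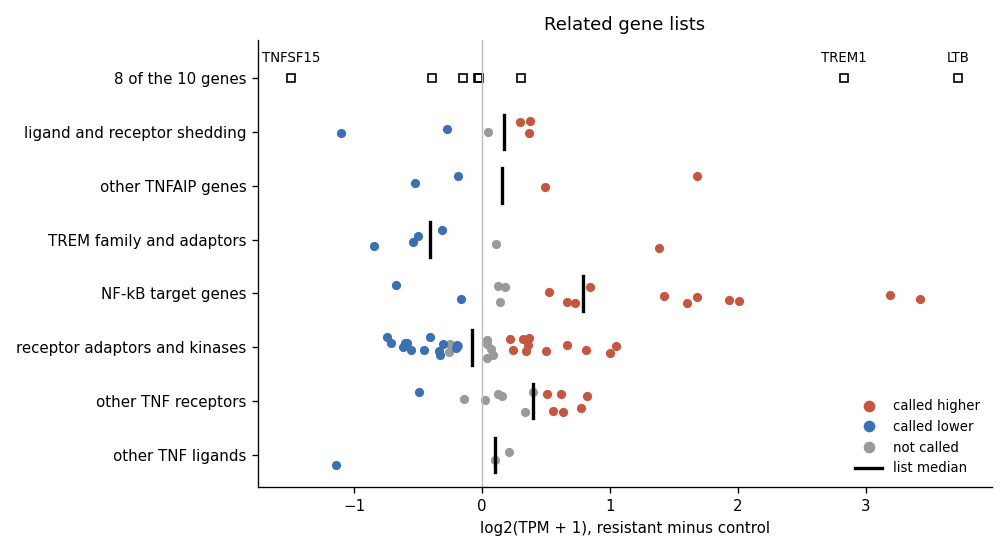
Difference between resistant and control means on the log2(TPM + 1) scale for every tested gene of 7 related lists, coloured by the limma call, with the median of each list as a bar; open squares are the 8 tested of the 10 genes, drawn without call colours because they were chosen on this contrast. NF-kB target genes have the highest median (0.79), and receptor adaptors lie on both sides of 0 (median -0.08).

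Genes that carry the receptor signal moved in both directions. Of 34 adaptors, kinases and NF-kB subunits, 32 were tested, with a median log2 difference of -0.08. Of the 32, 11 rose (34.4%), 13 fell (40.6%) and 8 did not pass, beside 24.0% and 24.7% of all tested genes. TRAF5, among those that rose, met the filter only through the resistant libraries. NFKB2 and RELB, the non-canonical pair downstream of LTBR, were higher. NFKB2 rose from 32.3 ± 0.283 to 65.6 ± 1.67 TPM (adjusted p = 4.45e-06) and RELB from 9.91 ± 0.630 to 16.3 ± 0.757 TPM (log2 difference 0.66 ± 0.07, adjusted p = 2.36e-04). TRAF3, which holds MAP3K14 down in unstimulated cells, fell from 41.4 ± 1.84 to 24.3 ± 1.43 TPM (log2 difference -0.74 ± 0.06, adjusted p = 6.26e-05). IKBKB, the catalytic subunit of the canonical pathway, fell from 15.9 ± 0.465 to 9.29 ± 0.381 TPM (log2 difference -0.71 ± 0.06, adjusted p = 9.11e-05).

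The other members of the complexes to which these genes belong are given as whole sets chosen after their values were seen. Of the other NF-kB subunits, NFKB1 fell by 0.34 and RELA fell by 0.20 on the log2 scale, and REL, at -0.25, did not pass. In the kinase complex, IKBKG fell by 0.62, while CHUK, the subunit that the non-canonical pathway uses, was at 15.5 ± 1.79 and 15.9 ± 1.99 TPM. MAP3K14 rose from 20.6 ± 1.15 to 24.5 ± 0.232 TPM. Among the ubiquitin ligases that restrain it with TRAF3, BIRC3, itself an NF-kB target, rose from 1.54 ± 0.336 to 4.23 ± 0.534 TPM, TRAF2 rose by a log2 difference of 0.22, and BIRC2, at -0.26, did not pass. MAP3K7 and its partners TAB1, TAB2 and TAB3 fell by 0.30, 0.60, 0.46 and 0.33 on the log2 scale. In the linear ubiquitin ligase, RBCK1 rose from 182 ± 5.63 to 231 ± 5.43 TPM, and RNF31 and SHARPIN did not pass.

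Of 30 listed NF-kB target genes, 14 stayed under the filter and 16 were tested, with a median log2 difference of 0.79. Of the 16, 11 rose (24.0% of all tested genes did), 2 fell (24.7% of all tested genes did) and 3 did not pass. CXCL1, CXCL2, CCL5, CCL20 and IL1B, 5 of the 11 that rose, reached 1 TPM in all 3 libraries of the resistant group alone. MMP9 did so in the control group alone. CXCL2 also reached 1 TPM in control replicate 3, and MMP9 in resistant replicates 1 and 3. The filter fixed the direction of CXCL1, CCL5, CCL20 and IL1B and favoured that of CXCL2 and MMP9. Neither the count nor the median over the tested targets thus stands for all 30. With the filter at 5 TPM, 7 rose and 1 fell. Of those that rose, CXCL8, CXCL1 and TNFAIP3 met that filter only through the resistant libraries, which fixed their direction. CXCL8, a neutrophil chemokine, and CXCL1, a close relative of CXCL2 and CXCL3, had log2 differences of 3.42 ± 0.13 and 3.18 ± 0.16 (adjusted p = 3.61e-06 and 8.44e-06). ICAM1, a leukocyte adhesion ligand, rose from 15.6 ± 0.936 to 66.1 ± 3.08 TPM (log2 difference 2.01 ± 0.06, adjusted p = 1.19e-06). The targets that fell were BCL3 (log2 difference -0.17) and MMP9 (-0.67), named after their values were seen. VCAM1, SELE and CCL2 were listed at 0 in all libraries, and the lymphoid chemokines CXCL13, CCL19 and CCL21, known as targets of the LTBR pathway, stayed under 1 TPM in all 6. Other untested targets were not all flat. CXCL3, CXCL10, IL1A, IL6, CSF2 and PTGS2 were higher in every resistant library than in any control library. The groups did not overlap, in either direction, for 57.9% of all tested genes, and the share among untested genes was not computed. These targets rested on 1 (CXCL10) to 61 (PTGS2) estimated reads in a resistant library and 0 to 10 in a control library. Their resistant means were low, from 0.239 TPM (IL6) to 0.991 TPM (PTGS2). CSF3 and BCL2A1 overlapped between groups. These genes are named after their values were seen.

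**Figure D3:**
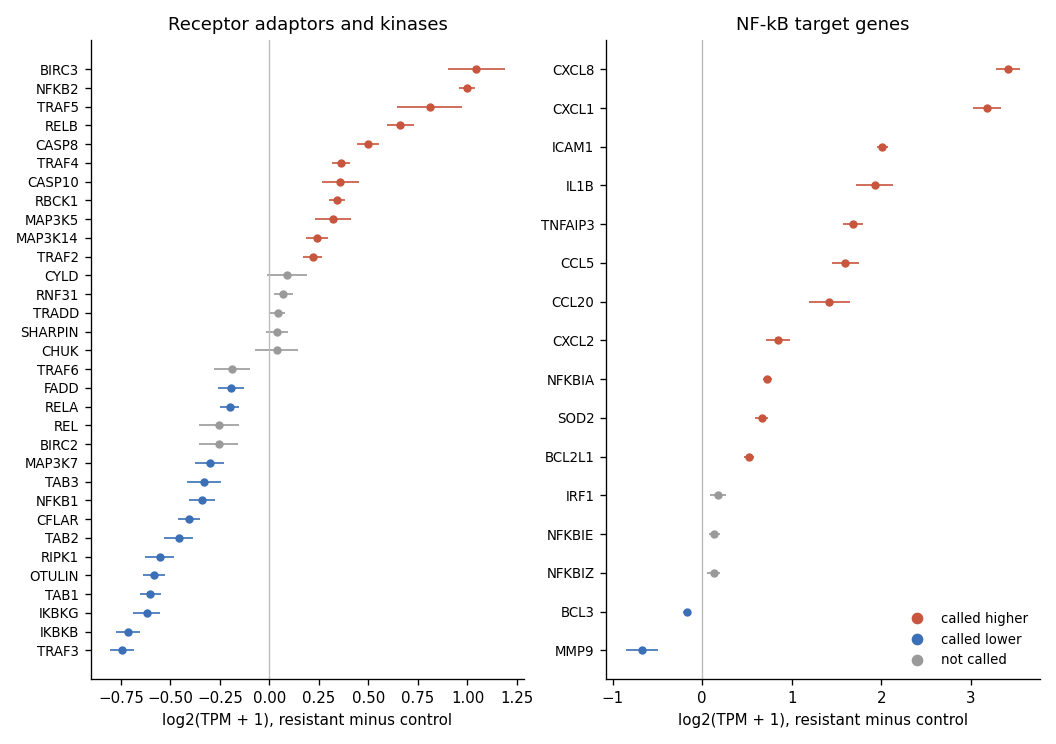
Log2 difference on the log2(TPM + 1) scale, resistant minus control, with its standard error for the 32 tested receptor adaptors and kinases (left) and the 16 tested NF-kB target genes (right), coloured by the limma call. BIRC3, NFKB2, TRAF5 and RELB are highest on the left and TRAF3, IKBKB and IKBKG lowest. Of the 16 target genes, 11 lie above 0 and are called, 5 of which reached 1 TPM in all 3 libraries of the resistant group alone.

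Genes that release ligands and receptors from the membrane also differed. Of 7 such genes, 6 were tested, 3 rose, 2 fell and 1 did not pass. Over all tested genes, 24.0% rose and 24.7% fell. ADAM10, a sheddase, fell from 42.4 ± 5.31 to 19.2 ± 2.17 TPM (log2 difference -1.10 ± 0.11, adjusted p = 1.58e-04). ADAM17, which cleaves TNF and its receptors, rose from 39.7 ± 2.43 to 51.6 ± 1.88 TPM (log2 difference 0.37 ± 0.06, adjusted p = 0.00141). Its partners RHBDF2 and RHBDF1 went opposite ways: RHBDF2 rose from 17.9 ± 0.925 to 22.2 ± 1.49 TPM (adjusted p = 0.00953), and RHBDF1, named after its values were seen, fell from 44.4 ± 2.51 to 36.5 ± 1.19 TPM (log2 difference -0.27 ± 0.06, adjusted p = 0.00492). TIMP3, an inhibitor of ADAM17, rose from 117 ± 3.37 to 152 ± 3.82 TPM (adjusted p = 3.17e-04).

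Neighbouring genes on the chromosome differed in size and direction at the 4 loci examined. The tested protein-coding genes nearest to LTB were NFKBIL1 and DDX39B on the side of lower coordinates and PRRC2A and BAG6 on the other. NFKBIL1 rose from 23.7 ± 1.99 to 31.3 ± 2.86 TPM (adjusted p = 0.00681), and DDX39B, PRRC2A and BAG6 had log2 differences between -0.09 and 0.04 and did not pass. Around TREM1, TREML4, tested only through the resistant libraries, and NFYA rose (log2 differences 1.38 and 0.35), and FOXP4 and MDFI fell (-0.44 and -0.35). Around TNFRSF1A, PLEKHG6, whose end lies 250 bp from it, rose from 23.4 ± 1.22 to 43.8 ± 0.602 TPM (adjusted p = 1.82e-05), and CD9 and SCNN1A did not pass. SCNN1A, between TNFRSF1A and LTBR, was at 154 ± 4.57 and 170 ± 9.68 TPM (adjusted p = 0.0535) and passed in 4 of 12 alternatives. LTBR and TNFRSF1A themselves, 32930 bp apart, differed in opposite directions. Around TNFSF15, TNC, 213451 bp away, fell (log2 difference -1.48), and TMEM268 and ATP6V1G1 did not pass. PAPPA, 1347677 bp away, rose (1.24), but it met the filter only through the resistant libraries, which fixed its direction. Over all tested protein-coding genes the median log2 difference was -0.04 on chromosome 6 (632 genes), -0.07 on chromosome 12 (637 genes), -0.01 on chromosome 9 (502 genes) and 0.08 on chromosome 14 (413 genes).

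**Figure D4:**
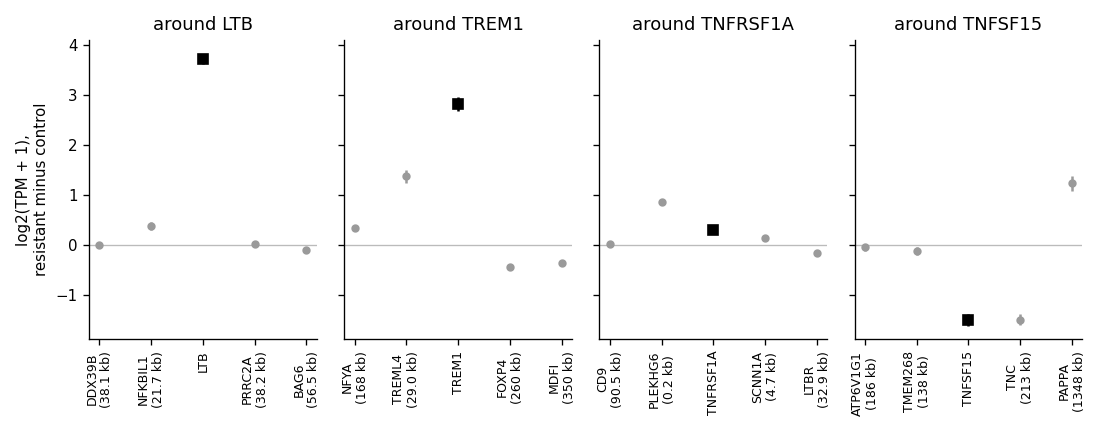
Log2 difference on the log2(TPM + 1) scale, resistant minus control, with its standard error for LTB, TREM1, TNFRSF1A and TNFSF15 (black squares) and the 2 nearest tested protein-coding genes on each side (grey points), ordered by position with the gap to the gene in kb. No tested neighbour of LTB differs by more than 0.39, and NFKBIL1 was called higher, as LTB was. TREML4 and NFYA near TREM1, PLEKHG6 near TNFRSF1A and TNC, 213451 bp from TNFSF15, differ in the direction of the gene they flank. FOXP4, MDFI, LTBR and PAPPA differ in the other direction. TREML4 and PAPPA met the filter only through the resistant libraries, which fixed their direction.

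The genes most like LTB across the 6 libraries, by Pearson's r of log2(TPM + 1), were FLVCR2 (r = 0.9999), a transporter, TINAGL1 (r = 0.9996) and ABTB3 (r = 0.9996). Those most like TREM1 were SAT1 (r = 0.9998), an enzyme of polyamine breakdown, LAMA3 (r = 0.9993), a laminin chain, and LIPH (r = 0.9993), a lipase. With 3 libraries per group these values mainly reflect the step between groups: 1375 of 10579 genes compared had r of at least 0.95 with LTB, and 1437 with TREM1. Mean control and resistant levels were 114 ± 6.93 and 525 ± 56.7 TPM for SAT1 and 2.51 ± 0.0563 and 8.49 ± 0.433 TPM for FLVCR2; both were picked for this step, so it is given with no test.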

How the data were processed

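The deposited values are TPM made by the authors, in which reads of a gene are divided by its length and each of the 6 library columns sums to 1000000. HISAT2 is the tool named per the submitters' processing notes; how reads were counted, against which build and annotation, and with what filters is not given in the sources used here. Libraries were made with a stranded mRNA kit, per the labels' protocols. All 51537 gene identifiers occur in GENCODE 29, whose GRCh38 coordinates and exon lengths were used.

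Reads were estimated as TPM times exon length divided by the smallest common step of the library. Values above 0 were whole within 0.01 read in 67.2% to 67.9% of cases, so totals are estimates. Genes reaching 1 TPM in 3 or more libraries (16077) were tested, and log2(TPM + 1) was compared between groups with limma 3.58.1 in R 4.3.3 (trend and robust empirical Bayes, statmod 1.5.0), two-sided, with Benjamini-Hochberg adjustment over all tested genes and a threshold of 0.05. All adjusted p-values are from this test. On simulated data it recovered 99% of genes changed by 1 and 79% of those changed by 0.5 on the log2 scale, among 15777 tested, and 9.18% of its calls were false. The simulation used a dispersion of 0.003 and changed 200 genes, all with a control mean of at least 5 TPM. It thus does not cover genes near 1 TPM, or data in which 48.6% of genes are called.

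The 10 genes and all lists were chosen with earlier results of these data known. From each list up to 4 called genes with at least 5 TPM in the higher group were named, largest difference first, or the most abundant where fewer than 2 were called; the 2 nearest tested neighbours of 4 genes, and the 3 genes most like LTB and TREM1, were added. Replicates differed by more than counting noise (mean chi-square per gene 3.87 to 11.0), so none was treated as a copy. Alternatives were another pseudocount, 2 other filters, median-ratio scaling, a replicate block, limma-voom on estimated reads and leaving out each library. Promoters are from RefSeq (GRCh38.p14); promoter sequence for TNFRSF12A was not used here. Intervals and read numbers cover counting error only.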

Additional observations from a re-analysis of the deposited data

How the results depend on the processing

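LTB, TREM1, TNFSF15, TNFRSF1A and TNFAIP2 kept their direction in all 12 alternatives. The size of the LTB difference rested on the scale: 5.29 with a pseudocount of 0.1 and 5.56 with limma-voom on estimated reads, and that of TREM1 was 5.14 and 6.08. The genes with no clear difference changed sign in some alternatives (TNFRSF21 in 1, TNFRSF12A in 3). Without a filter on low values, 2 other ligands and 2 other receptors fell, and 1 TNFAIP gene fell. With a filter at 5 TPM, which tests fewer genes, 0 other ligands fell, 3 other receptors rose, 7 NF-kB targets rose and 1 fell, and 0 genes of the TREM list rose. Among these targets, CXCL8, CXCL1 and TNFAIP3 met the 5 TPM filter only through the resistant libraries. With limma-voom, 1 NF-kB target fell. When 1 library was left out, NF-kB targets called lower ranged from 0 (without control replicate 3) to 2, with 1 without resistant replicate 2, and TNFAIP genes called lower ranged from 1 (without control replicate 1, 2 or 3 or resistant replicate 2 or 3) to 2. The looser NF-kB motif was found in 11.9% of promoters. Low depth limits LTA, TNF and TNFRSF1B, at 0 to 19 estimated reads per library.

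Replicate numbers did not pair the libraries: deviations of same-numbered libraries from their group means correlated at -0.058 to -0.0017 across genes. With the replicate number as a block, 3433 genes were called higher and 3423 lower, against 3852 and 3963 without it, and 1 TNFAIP gene fell.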
